A study of Mus musculus with 9 samples.

Results

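The genes described here copy DNA, supply its building blocks, drive the entry of cells into S phase or repair DNA. They were the 57 genes of a given list of such genes, and all 57 had a probe set among the 19938 genes named by a single symbol in the table. Where a gene had several probe sets, the brightest over all 9 arrays stood for it, which concerned 4 of the 57 genes. Expression was measured on 1-colour Affymetrix mouse gene arrays with 3 arrays in each of 3 groups. All cells were CD4-enriched T cells from the spleen of C57BL/6J mice, cultured for 72 h with beads that carry anti-CD3 and anti-CD28 antibodies, which stimulate a T cell through its antigen receptor and its costimulatory receptor. The wild-type group received the beads alone, the CD69-/- group carries the CD69-/- genotype, and the CD69-activated group is wild type with an anti-CD69 antibody from 24 h and a cross-linking secondary antibody from 48 h, each diluted 1 in 200. CD69 is a lectin-like surface protein that lymphocytes display early in activation. The labels describe no culture with a control antibody or the secondary antibody alone, and they call the samples of a group biological replicates without tying them to mice. The p-values therefore set group differences against the spread between these samples, which may be partly technical. The series asks which genes of activated CD4 T cells depend on CD69.

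Before S phase, the origin recognition complex together with Cdc6 and Cdt1 loads the MCM helicase onto replication origins, and geminin blocks Cdt1 so that each origin is licensed once. E2F transcription factors, freed when cyclin-dependent kinases act on the retinoblastoma protein, switch on most of the replication genes, and cyclin E with its kinase fires the origins. Activated T cells divide fast, and replication genes are among the transcripts that rise as they leave the resting state.

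Values are log2 RMA levels, and arrays of one group correlated at 0.996 to 0.998 over all probe sets. The mean of Cd69 was 9.59 in CD69-/- arrays against 12.17 (wild type) and 11.79 (CD69-activated), and the labels do not say whether its probes lie inside the deleted part. The X-inactivation transcript Xist averaged 6.01 in CD69-/- arrays against 12.59 (wild type) and 12.94 (CD69-activated), and the Y-linked gene Eif2s3y averaged 9.78 against 4.33 and 4.35, so sex and genotype cannot be told apart in any comparison with CD69-/-. The T cell genes Cd3e (12.50 in wild type) and Cd4 (11.98) were bright, and so were Cd8a (11.26) and the B cell genes Cd79b (13.61) and Ms4a1 (12.86), so transcripts of other lymphocytes were measured beside those of CD4 T cells.

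After CD69 activation the genes fell across every role, while in CD69-/- cells few of them changed. A gene was called where limma's p, adjusted by the Benjamini-Hochberg method over every gene tested, was under 0.05. By this rule 50 of the 57 genes fell and none rose in CD69-activated against wild-type cells. Of all genes tested 13.7% fell and 10.1% rose. The falls ranged from 1.16-fold to 2.56-fold, the median log2 change over the 57 genes was -0.47 (0.017 over all genes), and 19 genes fell by at least 1.5-fold (1.30% of all genes did). Every CD69-activated array lay below every wild-type array for 51 of the 57 genes, against 17.9% of all genes. In CD69-/- against wild-type cells 7 genes rose (8.36% of all genes did) and 1 fell (6.78%), with folds of 1.11 to 1.25. With the arrays centred on their medians 55 genes fell after activation and none rose, and over all genes 764 rose and 4741 fell in place of 2015 and 2727. Those medians were taken over all probe sets, including those without a gene symbol. Centring moved the median log2 change of all genes tested from 0.017 to -0.065, further from 0. All 57 log2 changes after activation were below 0 as deposited and with centring, and 56 were after cyclic loess, the exception being Fanci. In the following, a single value beside a gene is its log2 fold change against wild type, and 3 values per group are the log2 levels of its arrays. In bulk RNA, fewer cells of a type and less RNA per cell cannot be told apart.

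**Figure D1:**
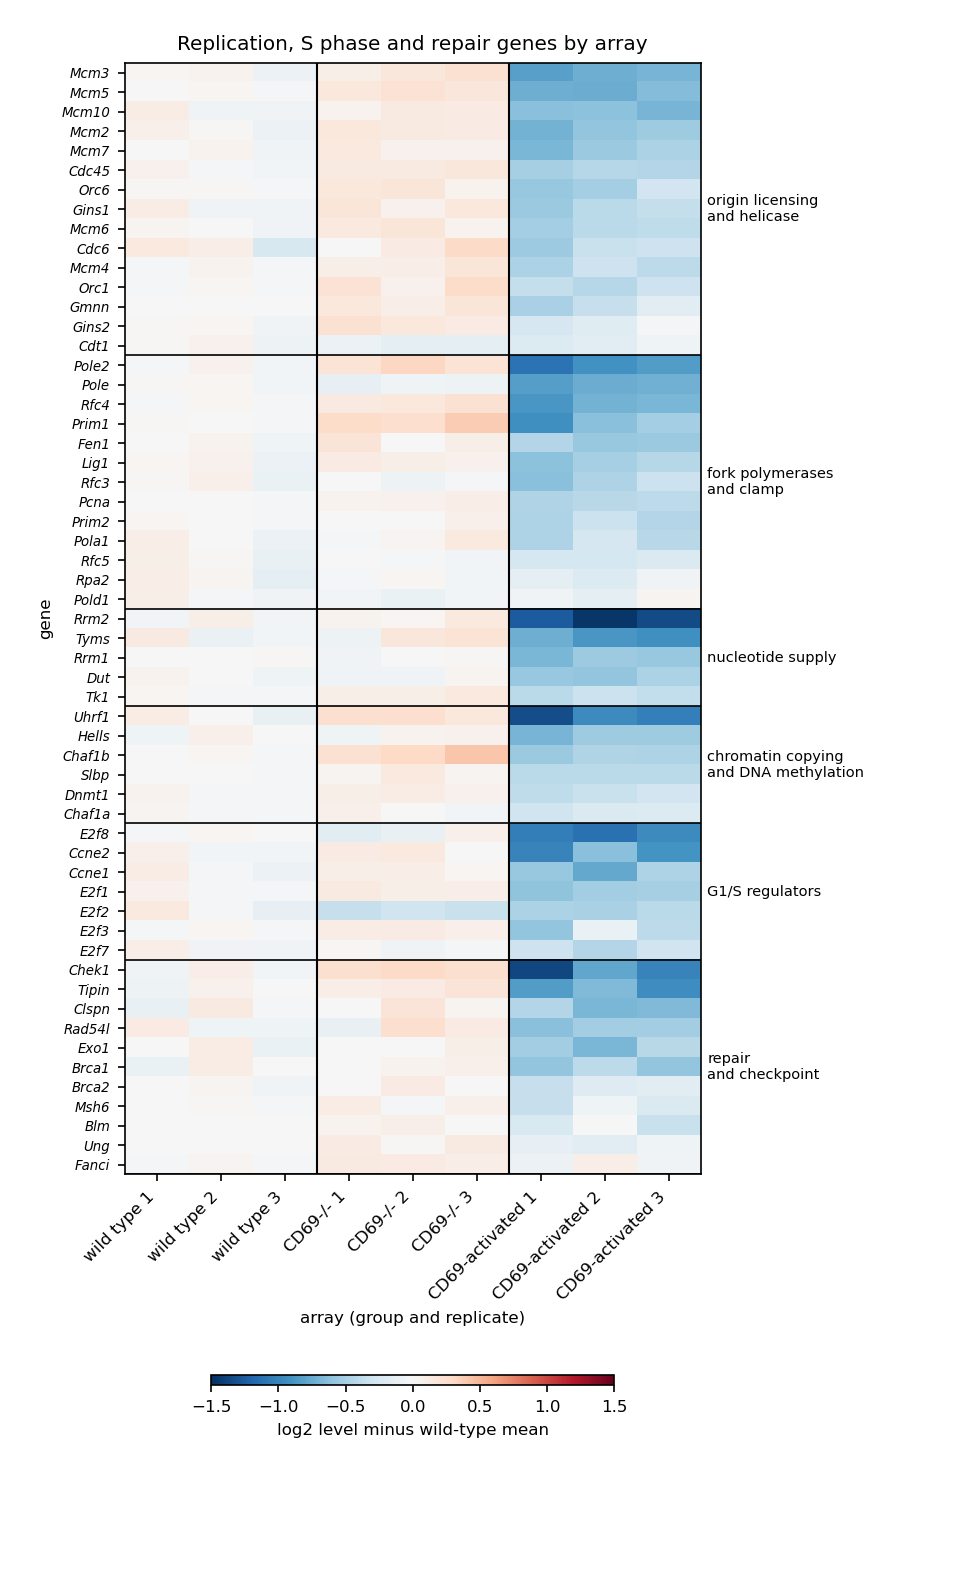
Log2 level minus the wild-type mean of the same gene (colour) for the 57 genes (rows, grouped by role) in the 9 arrays (columns). The 3 CD69-activated columns are below the wild-type mean in nearly every row, with Rrm2 at -1.35 and Uhrf1 at -1.11 on average.

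The promoters of the genes that moved together are shown to let their E2F type matches be seen. E2F factors bind GC-rich sites that start with a run of T, and 4 versions were searched on both strands (TTTCCCGC, TTTCGCGC, TTTGCCGC and TTTGGCGC) in RefSeq windows of 250 bases before to 50 after the annotated start (GRCm38.p6, the first window listed for a gene). Of the 57 genes 48 had a window. The other 9 were Gmnn, Mcm4, Gins1, Gins2, Prim2, Pole, Ccne2, Exo1 and Tipin. Below, capitals mark the E2F type matches. In each role with a match the gene with the largest fall was taken, and the 4 of these with the largest falls are shown. The last window belongs to Rrm2, the gene with the largest fall of all 57, which holds none of the 4 versions. They lie at chr12:69228141-69228440, minus strand (Pole2), chr1:20820263-20820562, minus strand (Mcm3), chr4:126556730-126557029, plus strand (Clspn), chr19:38930740-38931039, plus strand (Hells) and chr12:24708004-24708303, plus strand (Rrm2), and each is printed along the strand of its gene.
Pole2: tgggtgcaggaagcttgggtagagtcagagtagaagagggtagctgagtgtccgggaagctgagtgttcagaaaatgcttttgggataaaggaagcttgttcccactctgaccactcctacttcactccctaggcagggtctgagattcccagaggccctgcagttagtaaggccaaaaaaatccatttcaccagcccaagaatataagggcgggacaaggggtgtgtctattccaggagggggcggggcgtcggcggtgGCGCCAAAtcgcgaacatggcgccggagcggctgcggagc
Mcm3: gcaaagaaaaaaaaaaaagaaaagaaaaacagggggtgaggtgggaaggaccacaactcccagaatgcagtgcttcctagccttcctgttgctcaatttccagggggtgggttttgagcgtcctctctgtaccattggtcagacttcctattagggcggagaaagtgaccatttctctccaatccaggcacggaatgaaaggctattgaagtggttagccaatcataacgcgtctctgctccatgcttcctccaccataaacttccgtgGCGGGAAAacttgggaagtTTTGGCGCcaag
Clspn: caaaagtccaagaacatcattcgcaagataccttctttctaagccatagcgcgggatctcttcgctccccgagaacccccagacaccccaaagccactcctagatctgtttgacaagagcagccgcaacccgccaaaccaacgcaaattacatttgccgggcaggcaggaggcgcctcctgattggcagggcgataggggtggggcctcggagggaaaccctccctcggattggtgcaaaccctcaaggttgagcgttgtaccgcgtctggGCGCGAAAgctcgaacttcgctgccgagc
Hells: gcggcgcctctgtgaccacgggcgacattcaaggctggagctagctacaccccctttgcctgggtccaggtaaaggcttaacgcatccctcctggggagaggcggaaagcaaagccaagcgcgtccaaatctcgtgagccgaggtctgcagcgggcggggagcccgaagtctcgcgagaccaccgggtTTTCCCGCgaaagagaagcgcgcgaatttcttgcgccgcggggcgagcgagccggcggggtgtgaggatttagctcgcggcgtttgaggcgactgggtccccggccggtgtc
Rrm2: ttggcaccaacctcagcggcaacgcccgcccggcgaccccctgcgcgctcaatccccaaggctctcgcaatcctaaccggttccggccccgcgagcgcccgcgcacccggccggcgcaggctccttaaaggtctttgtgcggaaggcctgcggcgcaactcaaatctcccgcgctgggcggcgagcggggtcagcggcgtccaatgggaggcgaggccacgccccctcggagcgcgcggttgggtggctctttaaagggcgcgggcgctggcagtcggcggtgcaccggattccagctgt

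An E2F type match was in 18 of the 48 windows, or 37.5%, against 3.08% of the 15614 tested genes with a window and 1 of 24 windows (4.17%) of mitosis genes. The genes held 24 matches, some of them overlapping pairs on opposite strands as in Mcm5 and Mcm6, and 15 of the 24 were centred between 100 bases before and 50 after the start. The letters CCAAT, bound by NF-Y, were in 60.4% of the windows of the 57 genes, 75% of those of mitosis genes and 38.2% of those of all tested genes. The CHR type letters TTTGAA or TTCGAA, found in many promoters of late cell cycle genes, were in 16.7%, 79.2% and 16.8%. After activation, 16 of the 18 genes with an E2F type match fell (median -0.41) and 26 of the 30 without one fell (median -0.52). Over all tested genes, 124 of 481 with a match fell (25.8%) and 2099 of 15133 without one (13.9%), which describes letters in a window and not sites in use.

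**Figure D2:**
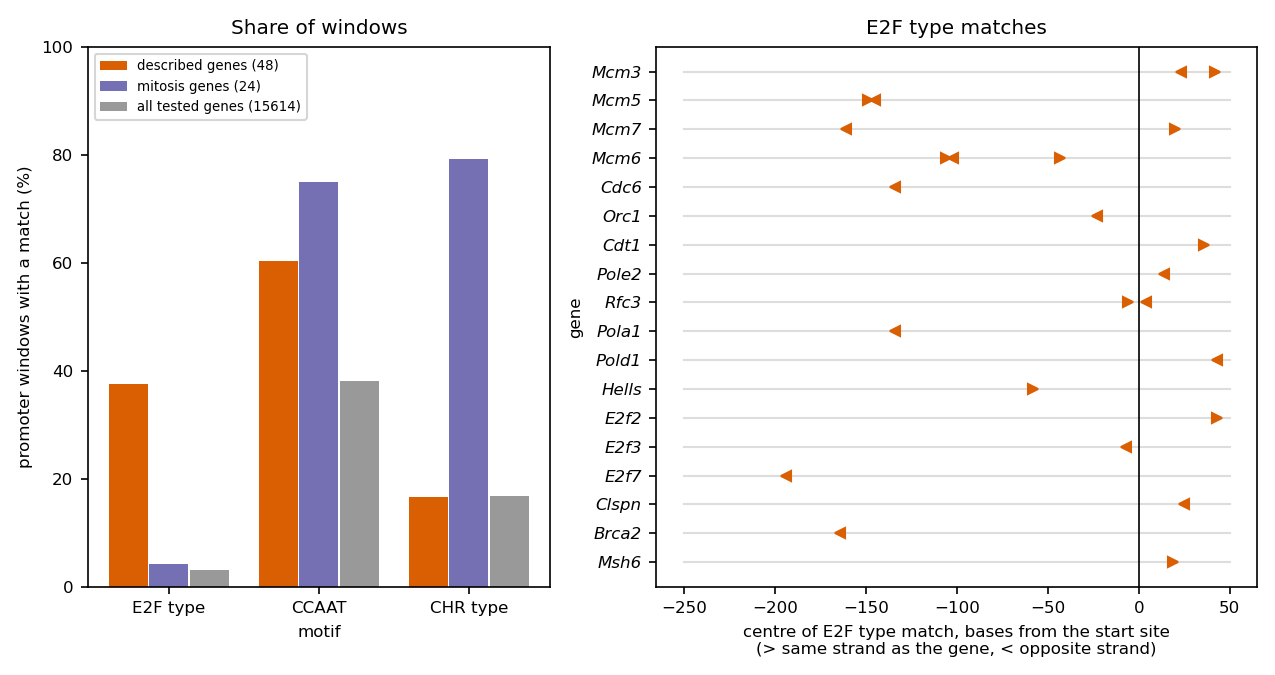
Left, share of promoter windows (percent) with at least 1 match to E2F type, CCAAT or CHR type letters in the described genes, mitosis genes and all tested genes. Right, distance in bases from the start site to the centre of each of the 24 E2F type matches, 1 row for each of the 18 genes. E2F type matches are in 37.5% of the described windows and CHR type matches in 79.2% of the mitosis windows.

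After CD69 activation 13 of the 15 genes of origin licensing and the helicase fell and none rose (median -0.44). Mcm3, a subunit of the helicase ring, stood at 9.41, 9.43 and 9.29 (wild type), 9.46, 9.55 and 9.60 (CD69-/-) and 8.56, 8.64 and 8.68 (CD69-activated). It fell 1.68-fold (log2 -0.75, SE 0.052, adjusted p = 3.53e-06, n = 3 per group). Mcm5, another ring subunit, read 10.98, 11.01 and 10.95 (wild type), 11.14, 11.19 and 11.15 (CD69-/-) and 10.25, 10.24 and 10.33 (CD69-activated), a 1.63-fold fall (adjusted p = 6.8e-07). The 3 groups of Mcm5 did not overlap at all, with CD69-/- arrays highest and CD69-activated arrays lowest. Mcm10, which helps to start the loaded helicase, read 8.43, 8.26 and 8.27 (wild type), 8.38, 8.46 and 8.44 (CD69-/-) and 7.69, 7.71 and 7.63 (CD69-activated). It fell by 0.65 on the log2 scale (adjusted p = 8.45e-06), and its wild-type and CD69-/- arrays overlapped. Of the other ring subunits, Mcm2 was at -0.61, Mcm7 at -0.57, Mcm6 at -0.43 and Mcm4 at -0.39, so all 6 subunits fell, by 0.39 to 0.75. Cdc45, which joins MCM and GINS into the moving helicase, had 8.80, 8.72 and 8.69 in wild type and 8.24, 8.31 and 8.30 in CD69-activated arrays, a fall of 0.46. The origin recognition subunit Orc1 had 6.52, 6.57 and 6.52 in wild type and 6.18, 6.10 and 6.22 in CD69-activated arrays, a fall of 0.37. Its partner Orc6 was at -0.46, the GINS subunit Gins1 at -0.44, the loader Cdc6 at -0.39 and the licensing inhibitor geminin, Gmnn, at -0.33.

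The licensing factor Cdt1 and the GINS subunit Gins2 did not pass the test. Cdt1 was at 10.53, 10.58 and 10.44 (wild type), 10.43, 10.38 and 10.37 (CD69-/-) and 10.31, 10.36 and 10.45 (CD69-activated), a difference of -0.14 after activation (adjusted p = 0.0561). Its CD69-activated arrays overlapped those of both other groups. Gins2 was at 9.02, 9.05 and 8.96 (wild type), 9.23, 9.16 and 9.14 (CD69-/-) and 8.75, 8.83 and 8.98 (CD69-activated) (-0.16, adjusted p = 0.0666). One CD69-activated array of Gins2 lay within the wild-type range. Centring on array medians, among other settings, brought both past the threshold. The call of Cdc6 was lost in at least 1 alternative.

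At the replication fork 11 of 13 genes fell and none rose (median -0.47). Pole2, the second subunit of the leading-strand polymerase epsilon, stood at 8.59, 8.69 and 8.58 (wild type), 8.83, 8.93 and 8.83 (CD69-/-) and 7.52, 7.71 and 7.78 (CD69-activated). Its fall was 1.94-fold (log2 -0.95, SE 0.063, adjusted p = 2.53e-06), and the 3 groups were apart from each other. Pole, the catalytic subunit of the same enzyme, read 9.88, 9.90 and 9.82 (wild type), 9.74, 9.80 and 9.79 (CD69-/-) and 9.04, 9.13 and 9.15 (CD69-activated), a 1.7-fold fall (adjusted p = 5.68e-07). Rfc4, of the complex that loads the sliding clamp, read 10.41, 10.46 and 10.41 (wild type), 10.55, 10.58 and 10.65 (CD69-/-) and 9.55, 9.72 and 9.74 (CD69-activated), a 1.68-fold fall (adjusted p = 3.12e-06). Prim1, the catalytic subunit of primase, had 8.58, 8.57 and 8.55 in wild type and 7.64, 7.94 and 8.06 in CD69-activated arrays and fell 1.61-fold. The CD69-activated arrays were lowest in all 4 of these genes. The flap endonuclease Fen1 was at -0.52, the ligase Lig1 at -0.51, the clamp Pcna at -0.42, the clamp loader subunits Rfc3 and Rfc5 at -0.47 and -0.25, and the primase subunit Prim2 at -0.40. Pola1, the catalytic subunit of polymerase alpha and the 1 gene of the 57 on the X chromosome, was at -0.38 after activation and 0.053 in CD69-/- cells.

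Pold1 and Rpa2 were the fork genes that did not pass. Pold1, the catalytic subunit of the lagging-strand polymerase delta, read 10.16, 10.04 and 10.01 (wild type), 10.03, 9.98 and 10.03 (CD69-/-) and 10.01, 9.92 and 10.11 (CD69-activated), a difference of -0.056 (SE 0.053, adjusted p = 0.494). All 3 groups of Pold1 overlapped. Rpa2, a subunit of the single-strand binding protein, read 9.88, 9.82 and 9.66 (wild type), 9.77, 9.81 and 9.75 (CD69-/-) and 9.66, 9.58 and 9.73 (CD69-activated) (-0.13, adjusted p = 0.136), and its wild-type and CD69-activated arrays overlapped.

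All 5 genes of nucleotide supply fell after activation (median -0.60). Rrm2, the regulatory subunit of ribonucleotide reductase, which sets the supply of deoxynucleotides in S phase, stood at 9.97, 10.10 and 9.97 (wild type), 10.07, 10.04 and 10.16 (CD69-/-) and 8.76, 8.55 and 8.67 (CD69-activated). Its 2.56-fold fall (log2 -1.35, SE 0.059, adjusted p = 1.22e-07) was the largest of the 57. The larger subunit of the same enzyme, Rrm1, read 11.08, 11.08 and 11.10 (wild type), 11.04, 11.09 and 11.10 (CD69-/-) and 10.40, 10.54 and 10.52 (CD69-activated) and fell 1.51-fold (adjusted p = 5.32e-06). Tyms, the thymidylate synthase, read 9.25, 9.02 and 9.07 (wild type), 9.03, 9.28 and 9.32 (CD69-/-) and 8.38, 8.25 and 8.20 (CD69-activated) and fell 1.79-fold (adjusted p = 4.4e-05). In all 3 genes the wild-type and CD69-/- arrays overlapped and the CD69-activated arrays lay below both. The dUTPase gene Dut was at -0.55 and the thymidine kinase gene Tk1 at -0.36.

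**Figure D3:**
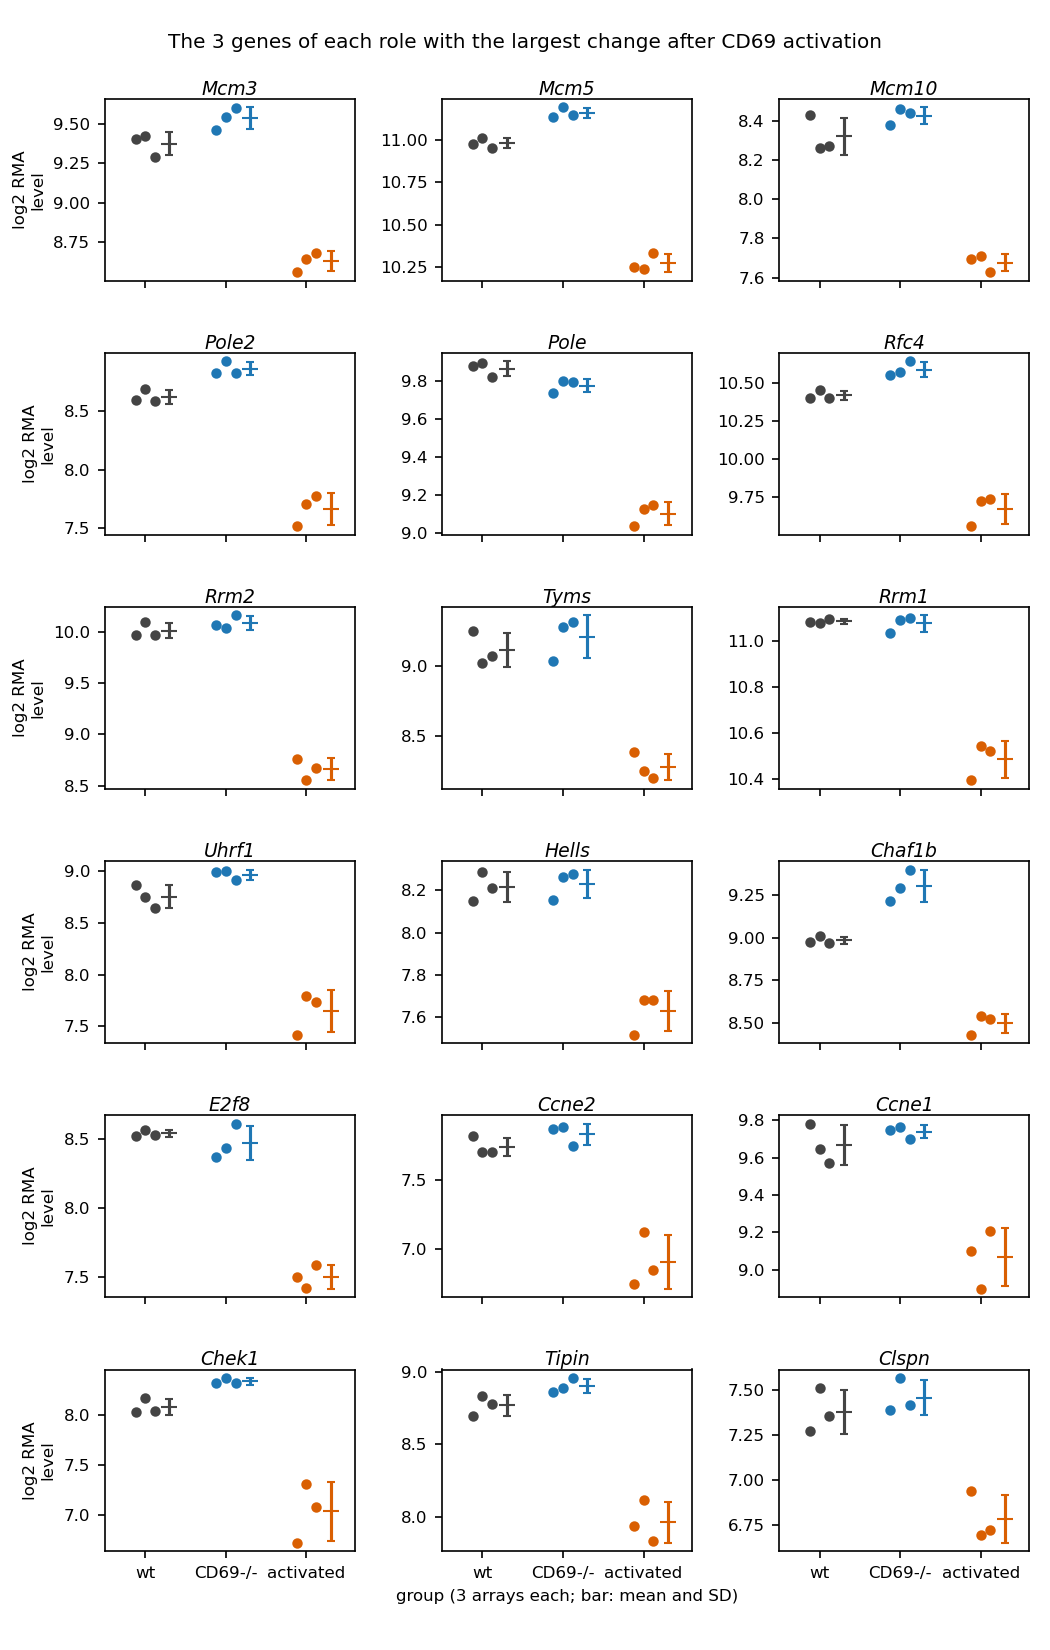
Log2 RMA level in each of the 9 arrays for the 3 genes of each role with the largest change after activation (points, arrays; bar, mean and SD of 3 arrays; each panel has its own vertical scale, which does not start at 0). In all 18 panels the CD69-activated points lie below the points of both other groups, and in Mcm3, Mcm5, Pole2, Rfc4, Uhrf1, Chaf1b, Chek1 and Tipin the CD69-/- points lie above wild type (a rise was called for Mcm5, Pole2, Rfc4 and Chaf1b). In Pole the CD69-/- points lie below wild type, and no fall was called.

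All 6 genes that rebuild chromatin or copy DNA methylation fell (median -0.44). Uhrf1, which recognises hemimethylated DNA behind the fork, stood at 8.86, 8.76 and 8.65 (wild type), 8.99, 9.0 and 8.91 (CD69-/-) and 7.42, 7.80 and 7.74 (CD69-activated). It fell 2.15-fold (log2 -1.11, SE 0.088, adjusted p = 9.28e-06), and CD69-activated replicate 1 was the lowest array. Hells, a chromatin remodeller needed for DNA methylation, read 8.15, 8.29 and 8.21 (wild type), 8.15, 8.26 and 8.28 (CD69-/-) and 7.52, 7.68 and 7.68 (CD69-activated) and fell 1.5-fold (adjusted p = 3.87e-05). Chaf1b, a subunit of the assembly factor that places histones on new DNA, read 8.98, 9.01 and 8.97 (wild type), 9.21, 9.29 and 9.40 (CD69-/-) and 8.43, 8.54 and 8.52 (CD69-activated) and fell 1.4-fold (adjusted p = 5.75e-05). The 3 groups of Chaf1b were fully apart. The other assembly subunit Chaf1a was at -0.24, the methyltransferase Dnmt1, which works with Uhrf1, at -0.33, and the histone mRNA binding protein Slbp at -0.40.

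All 7 regulators of the G1 to S step fell (median -0.54). E2f8, an E2F repressor made in S phase, stood at 8.52, 8.57 and 8.53 (wild type), 8.37, 8.43 and 8.61 (CD69-/-) and 7.5, 7.42 and 7.59 (CD69-activated) and fell 2.05-fold (log2 -1.04, SE 0.062, adjusted p = 1.27e-06). The cyclin gene Ccne2 read 7.82, 7.71 and 7.71 (wild type), 7.87, 7.89 and 7.75 (CD69-/-) and 6.74, 7.12 and 6.85 (CD69-activated) and fell 1.79-fold (adjusted p = 4.4e-05). Its relative Ccne1 read 9.78, 9.64 and 9.57 (wild type), 9.75, 9.76 and 9.70 (CD69-/-) and 9.10, 8.90 and 9.21 (CD69-activated) and fell 1.51-fold (adjusted p = 0.000197). None of the CD69-activated arrays reached the other groups in these genes. Of the activator E2Fs, E2f1 was at -0.54 and E2f3 at -0.36, and the repressor E2f7 was at -0.35. A dimmer probe set of E2f3 was at -0.015, so the probe sets of that gene disagree, and the call of E2f3 was lost in at least 1 alternative.

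E2f2, an activator E2F, was the gene of the 57 that fell in CD69-/- cells. Its arrays read 9.82, 9.64 and 9.55 (wild type), 9.32, 9.37 and 9.34 (CD69-/-) and 9.19, 9.18 and 9.26 (CD69-activated). The CD69-/- arrays lay below all wild-type arrays (log2 -0.33, SE 0.059, adjusted p = 0.00308), and the call held in every alternative. After activation it was at -0.46 (adjusted p = 0.000268), and CD69-activated against CD69-/- arrays differed by -0.13 (adjusted p = 0.0986), which did not pass.

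Of 11 repair and checkpoint genes 8 fell and none rose (median -0.52). Chek1, the kinase that restrains the cell cycle when forks stall, stood at 8.03, 8.18 and 8.04 (wild type), 8.32, 8.37 and 8.32 (CD69-/-) and 6.72, 7.30 and 7.07 (CD69-activated). Its fall was 2.07-fold (log2 -1.05, SE 0.11, adjusted p = 7.59e-05), with the widest spread between CD69-activated arrays of all 57 genes (SD 0.296). Tipin, of the fork protection complex, read 8.70, 8.84 and 8.78 (wild type), 8.86, 8.89 and 8.96 (CD69-/-) and 7.93, 8.11 and 7.83 (CD69-activated) and fell 1.75-fold (adjusted p = 1.09e-05). Clspn, the adaptor through which Chek1 is activated, read 7.27, 7.51 and 7.36 (wild type), 7.39, 7.57 and 7.42 (CD69-/-) and 6.94, 6.70 and 6.72 (CD69-activated) and fell 1.51-fold (adjusted p = 0.00029). All CD69-activated arrays of these 3 genes lay below the other 6. Among recombination genes, Rad54l was at -0.56, Brca1 at -0.52 and Brca2 at -0.23. The nuclease gene Exo1 was at -0.54 and the mismatch repair gene Msh6 at -0.21 (adjusted p = 0.0314, lost in at least 1 alternative).

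Ung, Blm and Fanci did not pass after activation. Ung, the glycosylase that removes uracil from DNA, read 8.39, 8.39 and 8.39 (wild type), 8.51, 8.41 and 8.52 (CD69-/-) and 8.26, 8.22 and 8.33 (CD69-activated) (-0.12, adjusted p = 0.0667), and its CD69-activated arrays were all below wild type, whose 3 arrays hold the same value. Blm, a helicase of recombination, read 8.44, 8.43 and 8.43 (wild type), 8.48, 8.52 and 8.44 (CD69-/-) and 8.21, 8.43 and 8.11 (CD69-activated) (-0.18, adjusted p = 0.0725). Fanci, of the interstrand crosslink pathway, read 8.55, 8.62 and 8.55 (wild type), 8.71, 8.70 and 8.67 (CD69-/-) and 8.48, 8.67 and 8.52 (CD69-activated) (-0.013, adjusted p = 0.878). For Blm and Fanci the second CD69-activated array reached or passed the wild-type range.

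**Figure D4:**
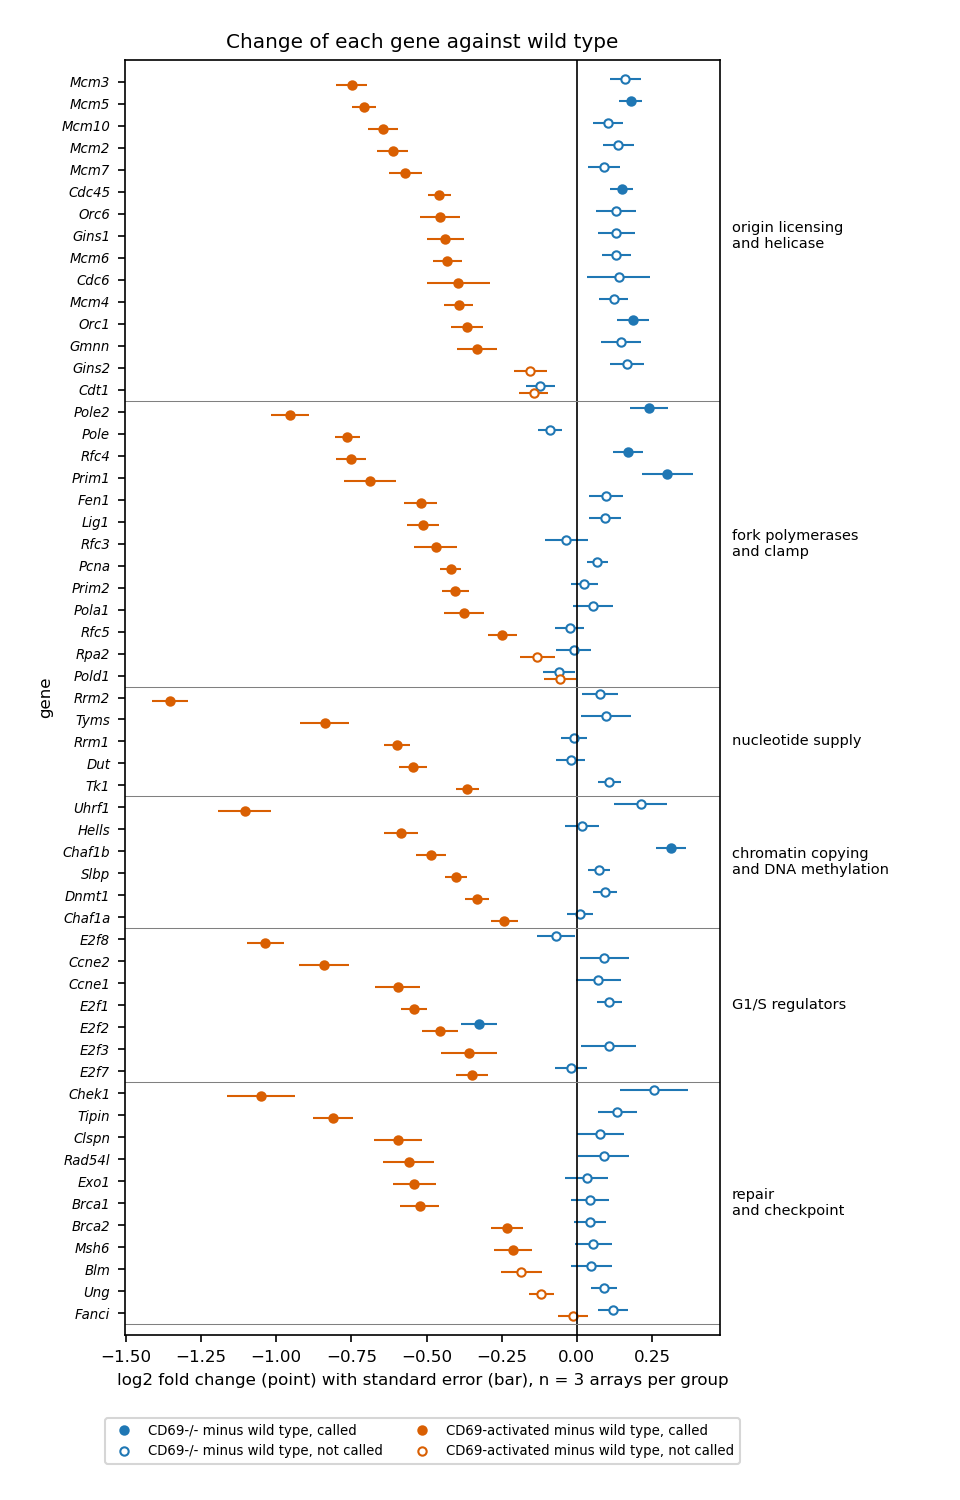
Log2 fold change against wild type (point) with its standard error (bar) for each of the 57 genes, in CD69-/- (blue) and CD69-activated (orange) cells; filled points have an adjusted p under 0.05. Orange points are filled and left of 0 for 50 genes, and blue points are filled for 8, of which E2f2 alone is left of 0. The 2 comparisons share the wild-type arrays.

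In CD69-/- cells the 7 genes that rose were Chaf1b, Prim1, Pole2, Orc1, Mcm5, Rfc4 and Cdc45. Chaf1b, whose arrays are given above, rose 1.24-fold (log2 0.31, SE 0.05, adjusted p = 0.00123). Prim1 had 8.84, 8.82 and 8.95 in CD69-/- against 8.58, 8.57 and 8.55 in wild-type arrays, a rise of 0.30 (adjusted p = 0.0364). Orc1 had 6.75, 6.60 and 6.81 against 6.52, 6.57 and 6.52, a rise of 0.19 (adjusted p = 0.0402). The arrays of the 2 groups did not overlap for either gene, though the lowest CD69-/- array of Orc1 was close to the highest of wild type. Cdc45 had 8.88, 8.88 and 8.91 in CD69-/- arrays and rose by 0.15 (adjusted p = 0.024). Pole2 rose by 0.24, Mcm5 by 0.18 and Rfc4 by 0.17, with adjusted p of 0.0255, 0.00939 and 0.0472. By its brightest probe set no other gene passed, and none of the 5 nucleotide supply or 11 repair genes did. A dimmer probe set of Tk1, which did not stand for the gene, was at 0.38.

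The median over the 57 genes in CD69-/- cells was 0.092, against -0.0091 over all genes, and 46 of the 57 log2 changes were above 0. The CD69-/- arrays lay wholly above wild type for 28 genes (17.3% of all genes) and wholly below for 3 (15.9%). The 7 rises amount to 12.3% of the genes beside 8.36% of all genes, a share close to the background. The count was the most sensitive of the 3 comparisons. From 8 calls it went to 5, 4 and 3 without wild-type replicate 1, 2 and 3, and to 4, 4 and 3 without CD69-/- replicate 1, 2 and 3. With array medians centred it was 12 higher and 1 lower, while the median over all genes moved from -0.0091 to 0.037. After cyclic loess it was 6 higher and 3 lower. Chaf1b and Mcm5 were called higher and E2f2 lower in every alternative. Cell type markers differed in the same comparison, in which 8.36% of all genes rose and 6.78% fell. Of 12 T cell markers 11 rose, with log2 summed levels of 15.74 to 15.77 in CD69-/- and 15.29 to 15.37 in wild-type arrays. That list holds Cd4 (0.37) beside genes such as Cd3e that CD8 T cells also express, so its sum is not a level of CD4 T cells alone. All 13 measured B cell markers fell, with summed levels of 15.745 to 15.840 against 16.19 to 16.26, and 11 of 12 myeloid markers fell (13.55 to 13.60 against 13.96 to 14.01). Both CD8 T cell markers rose, NK cell markers had 3 higher and 4 lower of 10, erythroid markers 3 lower of 5 and plasma cell markers 2 higher and 4 lower of 8. Activated T cells also express Eomes, Prf1 and Gzma of the NK list and Irf4, Prdm1 and Xbp1 of the plasma cell list. Here and below, changes of these lists therefore do not identify NK or plasma cells. No marker is listed at 0, since RMA levels carry no detection call. The part of these cells in the rises was not tested.

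CD69-activated and CD69-/- cells differed most. Of the 57 genes 53 were lower in CD69-activated cells and none was higher (21.0% of all genes were lower, 21.6% higher and 42.6% either), with a median of -0.57 against 0.035 over all genes. All CD69-activated arrays lay below all CD69-/- arrays for 54 genes (24.2% of all genes) and above them for none (27.3%), and 26 genes were lower by at least 1.5-fold (2.64%). Rrm2 differed by -1.43 (adjusted p = 2.84e-08), Uhrf1 by -1.32 (adjusted p = 8.21e-07), Chek1 by -1.31 (adjusted p = 5.45e-06) and Pole2 by -1.19 (adjusted p = 1.55e-07). Cdt1 (-0.023), Pold1 (0.0039), Rpa2 (-0.12) and E2f2 did not pass. Cdt1 was above 0 after cyclic loess and without CD69-activated replicate 1, and Pold1 was below 0 with centring, without CD69-/- replicate 2 and without CD69-activated replicate 3. Centring on array medians moved the median of all genes in this comparison from 0.035 to -0.092 and left 56 of the 57 genes lower and none higher, with 1354 of all genes higher and 7990 lower in place of 4314 and 4187. Cell type markers differed widely in this comparison. All 12 T cell markers were lower in CD69-activated cells (median -0.50), with log2 summed levels of 15.28 to 15.31 against 15.74 to 15.77, and both CD8 T cell markers were lower (median -0.92). All 13 B cell markers were higher (median 0.42), and of 12 myeloid markers 11 were higher and 1 lower (median 0.65). NK cell markers had 1 higher and 7 lower of 10 (median -0.62), erythroid markers 4 higher of 5 and plasma cell markers 3 higher and 3 lower of 8. The part of these cells in the differences of the 57 genes was not tested.

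Several marker lists also moved in CD69-activated against wild-type cells, where 10.1% of all genes rose and 13.7% fell. The log2 summed level of 12 T cell markers was 15.28 to 15.31 in CD69-activated and 15.29 to 15.37 in wild-type arrays, with 3 of 12 lower. That of 13 B cell markers was 16.15 to 16.20 against 16.19 to 16.26, with 2 higher and 2 lower (15.4% each, close to the shares over all genes). Of 10 NK cell markers 8 fell, and their summed level was 11.73 to 11.83 against 12.39 to 12.46. The brightest of that list in wild type were Klrd1 (mean 10.65), Eomes (10.10) and Gzma (9.86), and the dimmest were Klre1 (4.91), Klrb1c (5.49) and Klra8 (5.58). Cd8a fell by 0.54 and Cd8b1 by 0.25. Of 8 plasma cell markers 5 fell (12.92 to 12.98 against 13.09 to 13.13). Of 12 myeloid markers 4 rose (Adgre1 0.85, Cd14 0.46, Lyz2 0.35 and Csf1r 0.20) and 3 fell (Clec7a -0.45, Itgax -0.35 and Mpeg1 -0.16). The median of the myeloid list was -0.034, with summed levels of 13.96 to 14.01 in both groups. Of 5 erythroid markers Alas2 rose (0.33) and Car1 fell (-1.88), 3 of the 5 changes were above 0, and the median was 0.050. The summed erythroid level, which includes Car1, was 9.93 to 9.98 against 10.45 to 10.49. The part of these cells in the falls of replication genes was not tested.

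Other genes of the same pathways, from lists written with earlier results of these data known, were mixed. After activation 13.7% of all genes tested fell and 10.1% rose. Of 41 further replication and S phase genes 25 fell and 1, Orc4 (0.18), rose after activation (median -0.19), led by the histone chaperone Asf1b (-0.87), the origin firing factor Ticrr (-0.85) and Cdca7 (-0.84). Of 21 further G1/S control genes 12 fell and 1 rose (median -0.20), led by Dtl, which directs the destruction of Cdt1 (-1.27), cyclin A2, Ccna2 (-1.18), and the kinase subunit Cks1b (-1.15). The gene that rose was Rb1, the retinoblastoma protein (0.21, adjusted p = 0.0148). Of 45 further repair and checkpoint genes 13 fell (28.9%) and 7 rose (15.6%, not far from the share of all genes), with a median of -0.058. The largest changes were the falls of the endonuclease Apex1 (-0.85), Fancd2 (-0.67) and Brip1 (-0.66). Named after their values were seen, the 7 that rose were Atr (0.44, adjusted p = 4.82e-05), Prkdc (0.40), Msh3 (0.23), Polk (0.22), Atm (0.20), Fancl (0.19) and Trp53bp1 (0.15).

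Atr, Prkdc and Atm encode the large kinases that sense DNA damage and stalled forks, and Atr is the kinase that activates Chek1. Atr stood at 9.53, 9.56 and 9.46 (wild type), 9.33, 9.36 and 9.42 (CD69-/-) and 9.90, 10.01 and 9.96 (CD69-activated), so every CD69-activated array was above the other 6, in the opposite order to Chek1. In CD69-/- cells Atr fell by 0.15 (adjusted p = 0.0433). In CD69-/- cells 4 of the 41 further replication and S phase genes rose (9.76%) and 2 fell (4.88%). Of the 21 further G1/S control genes 2 rose (9.52%) and none fell. Of the 45 further repair and checkpoint genes 4 rose (8.89%) and 3 fell (6.67%). Over all genes 8.36% rose and 6.78% fell, so these shares are close to the background. The largest change of each list was Pold4 (-0.27), E2f6 (0.20) and Polk (0.29).

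Mitosis genes, the nearest group of the cell cycle, fell in 28 of 29 cases after activation (96.6%, median -0.74), against 13.7% of all genes. In CD69-/- cells (median -0.0073) 1 was higher (3.45%) and 2 were lower (6.90%), against 8.36% and 6.78% of all genes. Nusap1 (-1.39), Kif11 (-1.25) and Top2a (-1.21) led the falls. The centromere histone Cenpa was the mitosis gene that did not pass (-0.048, adjusted p = 0.621). Whether mitosis genes fell more than the 57 genes was not tested.

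**Figure D5:**
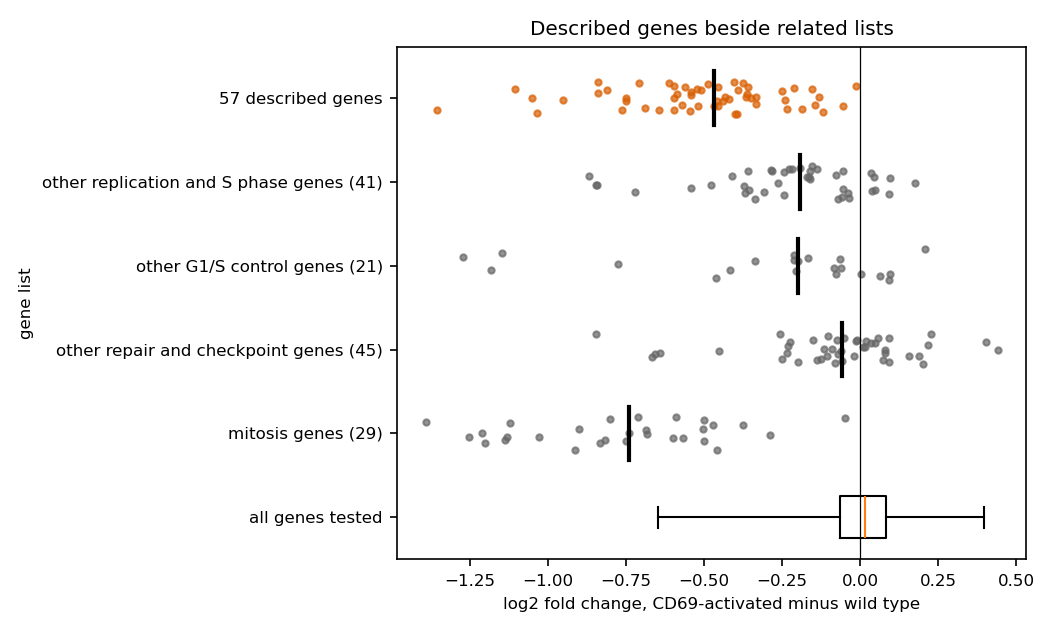
Log2 fold change of CD69-activated minus wild-type cells for each gene of 5 lists (points, jittered vertically; black bar, median) and for all genes tested (box, quartiles; whiskers, percentiles 1 and 99). Medians are -0.47 for the 57 described genes, -0.19, -0.20 and -0.058 for the further lists, -0.74 for mitosis genes and 0.017 for all genes.

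Arrays of the 3 groups were also apart over the genes as a whole. The median of the 57 levels within an array was 8.92 to 8.96 in wild type, 9.02 to 9.09 in CD69-/- and 8.43 to 8.54 in CD69-activated arrays, with no overlap between groups. Array medians over all probe sets were 7.426 to 7.475, 7.396 to 7.43 and 7.518 to 7.556 in the same order. There too the CD69-activated arrays stood apart, but as the highest, while wild-type and CD69-/- arrays overlapped narrowly. The median SD between arrays of a group was 0.059 in wild type, 0.048 in CD69-/- and 0.092 in CD69-activated arrays (0.046, 0.045 and 0.061 over all genes), so the CD69-activated arrays varied most. The genes lie on 16 chromosomes, with 8 on chromosome 5 and 7 on chromosome 7.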

How the data were processed

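The authors deposited log2 expression values of RMA, and the submitters' processing notes name oligo and R 2.12.1 as tools. RMA options and genome build: not given in the sources used here. RMA ordinarily quantile-normalizes arrays, which hides a shift shared by all genes. The table holds 35556 probe sets, of which 21789 had 1 gene symbol, 1621 several and 12146 none in the platform annotation, and 21698 were matched by gene ID to RefSeq. Without further scaling, limma 3.58.1 (R 4.3.3) fitted 3 group means to the 9 arrays, with a constant prior variance (4.78 prior beside 6 residual degrees of freedom), two-sided tests and Benjamini-Hochberg adjustment over 19938 genes. Genes with an adjusted p under 0.05 were called. On simulated data with independent noise the fit called 70% of 50 genes changed 1.2-fold and 100% of 50 changed 1.5-fold. In that simulation 19738 of 19938 genes were unchanged, far more than were not called in these data, so it does not show the recovery here. Members, lists and tests were chosen with earlier results of these data known. Values in every array are given for the 3 genes of each role with the largest change after activation, genes called in CD69-/- cells and genes not called after activation, and further lists are named by their 3 largest changes. The alternatives changed the scaling (arrays centred on medians, cyclic loess), the genes (without the dimmest 25%, without X and Y genes, probe sets averaged or all tested), the fit (only the 2 groups compared, robust prior with trend, weighted arrays, replicate number as block) and the arrays (each left out in turn). The array medians used for centring were taken over all 35556 probe sets and not over the 19938 genes tested. Figures were drawn with matplotlib 3.10.9.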

Additional observations from a re-analysis of the deposited data

How the results depend on the processing

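The falls after CD69 activation kept their count within 47 to 55 under all alternatives, and 47 of the 50 called genes were called in each alternative that tested them (Cdc6, E2f3 and Msh6 were not). Fanci, not called, turned above 0 after cyclic loess and without CD69-activated replicate 1 or 3 or wild-type replicate 2. Leaving out 1 array gave 47 to 52 calls after activation, 51 to 53 for CD69-activated against CD69-/- cells (53 with all arrays) and 3 to 10 for CD69-/- against wild type (8 with all arrays). With the arrays centred on their medians CD69-/- cells had 13 calls, and the medians of the genes moved to 0.14 (0.092 as deposited), -0.55 (-0.47) and -0.70 (-0.57) in the comparisons of CD69-/- with wild type, CD69-activated with wild type and CD69-activated with CD69-/-. The labels share replicate numbers. Deviations of same-numbered arrays correlated at -0.24 to 0.14, and those of arrays with other numbers at -0.14 to 0.20. Whether the numbers pair the samples by mouse or culture cannot be told from these values. With a replicate block 7, 50 and 53 genes were called in those comparisons. With 3 arrays a group and RMA values that carry no detection call, changes of dim genes are limited by signal over background. Gmnn and Ung each have the same value in all 3 wild-type arrays, so their SDs there have no meaning.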

Other observations

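Second probe sets were available for 4 of the genes. Those of Pcna were at -0.42 and -0.40 after activation, those of Slbp at -0.40 and -0.52 and those of Tk1 at -0.36 and -0.38. In CD69-/- cells the dimmer probe set of Tk1 was at 0.38 and the brighter one at 0.11. RefSeq lists pseudogenes of Pcna, so which copy its probe sets measure is uncertain. Which genomic copy each probe set of Tk1 measures was not settled either.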
